A study of Homo sapiens with 50 samples.

Results

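Transcripts of 10 factors and effectors of the integrated stress response were followed: ATF4, DDIT3, ATF3, TRIB3, CHAC1, DDIT4, PPP1R15A, CEBPB, STC2 and VLDLR. They were taken by gene symbol from the 57905 genes of both deposited tables, and all 10 were found in both. The integrated stress response starts when one of several kinases (PERK, GCN2, PKR or HRI) phosphorylates the translation factor eIF2alpha, which lowers protein synthesis in general but favours translation of ATF4. ATF4 then raises transcription of genes for amino acid supply, redox balance and, through DDIT3 (CHOP), cell death. Because ATF4 is controlled mainly at translation, its mRNA level is an incomplete readout of its activity, and the mRNAs of its targets are commonly read in its place.

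RNA of wild-type H1 cells, an established human embryonic stem cell line, was sequenced before differentiation (day 0) and on days 3, 5, 7 and 11 of a cardiac differentiation culture. There were 50 libraries, 2 for each of 25 groups: undifferentiated cells, and on each later day a control of the differentiation, cells given HCl, NaHCO3 or IWP2 alone, cells given NaHCO3 on top of IWP2, and cells given all of IWP2, NaHCO3 and 2-DG. An acid was thus set against a base (sodium bicarbonate), IWP2 is an inhibitor of WNT protein secretion, and 2-DG (2-deoxyglucose), an analogue of glucose, blocks glycolysis and can also disturb the glycosylation of proteins in the endoplasmic reticulum (ER). The labels give no dose, time of addition or pH reading, and 2-DG was given only together with IWP2 and NaHCO3, so its reference here is the culture with IWP2 and NaHCO3. The comparisons of HCl, NaHCO3 and IWP2 with the control share the control libraries of the day. Nothing in the labels says that the 2 libraries of a group came from separate cultures, so the p-values measure only the spread between libraries. For each gene this spread was estimated over all groups fitted together, not from the compared pairs alone.

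Days 3 and 5 are in one table (24 libraries, 14794134 to 22796553 counts each) and days 7, 11 and 0 in the other (26 libraries, 14090004 to 20445875 counts). Levels are the deposited FPKM, that is reads per kilobase of exon scaled to the library's total, and log2 fold changes come from the counts. A gene was called, and is said to have risen or fallen, when the quasi-likelihood test of edgeR gave a Benjamini-Hochberg adjusted p under 0.05 over all genes tested and the log2 fold change was 1 or more in either direction. All 10 genes passed the filter of 1 FPKM in at least 2 libraries in both tables. CHAC1 reached 1 FPKM in 13 of 24 and 6 of 26 libraries, TRIB3 in 11 and 20 and STC2 in 12 and 20, so these passed through the groups where they were high. No test was made between the tables. The cultures changed in cell makeup as well: in the undifferentiated libraries 10 pluripotency markers summed to 2227 and 2247 FPKM, and 12 cardiac markers to 4.46 and 4.79 FPKM. In bulk RNA, fewer cells of a type and less RNA per cell cannot be told apart. The 2 libraries with 2-DG of day 3 lay further apart than those of any other group. Because the estimate of spread is shared between groups, SEs and p-values for this pair can understate its own spread. Replicate 1 was higher for 7 of the 10 genes in that pair, for 10 with HCl on day 5, and for 8 both with HCl on day 7 and with IWP2 on day 11. In other groups this number was as low as 1.

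The genes lie on chromosomes 22 (ATF4), 12 (DDIT3), 1 (ATF3), 20 (TRIB3 and CEBPB), 15 (CHAC1), 10 (DDIT4), 19 (PPP1R15A), 5 (STC2) and 9 (VLDLR). On GRCh37, the build of the deposited tables, CHAC1 spans 41245160 to 41248710 of chromosome 15 and DDIT3 spans 57910371 to 57914300 of chromosome 12. The DDIT3 interval overlaps the end of MARS (57869228 to 57911352), a gene of the opposite strand, and the handling of strand in counting is not given in the sources used here, so part of the DDIT3 count is uncertain. The mean of MARS was 22.2 FPKM, with 62.84 in its highest library, against a mean of 11.3 FPKM for DDIT3. VLDLR overlaps RP11-125B21.2 on the opposite strand, whose mean was 0.915 FPKM against 13.4 FPKM for VLDLR.

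Promoter sequences are shown for CHAC1, which had the widest range of levels, for PPP1R15A, which was called in none of the treatment comparisons, and for DDIT3. The 250 bases before the annotated start were taken from RefSeq on GRCh38.p14, where all 10 genes were found, and read on the gene's strand. The motifs below were searched on both strands: the C/EBP-ATF response element recognised by ATF4 dimers (TGATGNAA), the cyclic AMP response element (TGACGTCA), the AP-1 site (TGANTCA) and the ER stress response element. Capitals mark the matches.

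CHAC1 (chr15:40953221-40953470, plus strand): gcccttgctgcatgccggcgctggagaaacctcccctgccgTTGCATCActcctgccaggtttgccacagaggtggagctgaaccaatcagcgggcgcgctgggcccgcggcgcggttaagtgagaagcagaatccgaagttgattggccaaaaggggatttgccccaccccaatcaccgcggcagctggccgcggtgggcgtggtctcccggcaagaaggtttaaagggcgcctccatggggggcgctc
PPP1R15A (chr19:48872171-48872420, plus strand): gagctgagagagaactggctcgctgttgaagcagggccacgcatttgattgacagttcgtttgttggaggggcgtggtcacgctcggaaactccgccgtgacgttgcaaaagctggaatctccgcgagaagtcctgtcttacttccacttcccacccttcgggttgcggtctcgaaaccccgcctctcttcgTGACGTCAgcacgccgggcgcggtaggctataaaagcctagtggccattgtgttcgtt
DDIT3 (chr12:57520518-57520767, minus strand): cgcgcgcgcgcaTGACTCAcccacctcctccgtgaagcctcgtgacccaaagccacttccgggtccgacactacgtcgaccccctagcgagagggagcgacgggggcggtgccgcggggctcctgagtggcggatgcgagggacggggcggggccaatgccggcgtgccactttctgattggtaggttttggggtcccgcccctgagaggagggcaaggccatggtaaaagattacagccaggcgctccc

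In CHAC1 the capitals are the C/EBP-ATF response element read on the opposite strand, 209 to 202 bases before the start. In PPP1R15A they are a cyclic AMP response element 58 to 51 bases before the start, and in DDIT3 an AP-1 site 238 to 232 bases before it. The C/EBP-ATF response element was in a window of 2 of the 10 genes, CHAC1 and ATF3, the latter in 1 of its 2 windows. It was in 3.14% of 35114 RefSeq windows of the same length. The 10 genes have 1 to 3 windows each and count once if any matches, while the percentages count single windows. The cyclic AMP response element was in 1 of the 10 and in 1.65% of all windows, the AP-1 site in 1 and in 6.57%, and the ER stress response element in none and in 0.074%. A match describes the letters in the window and not a bound site, and several genes have elements outside such a window.

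Of 200 values, 10 genes in 20 treatment comparisons, 67 were called, 55 higher and 12 lower. A further 46 had an adjusted p under 0.05 but were under the fold required. Addition of 2-DG held 24 of the rises and 1 of the falls, and HCl 17 of the rises and 3 of the falls. With 2-DG, 7 genes rose on day 3 (1.5% of all genes tested rose), 9 on day 5 (7.04%), 6 on day 7 (7.1%) and 2 on day 11 (9.32%), where 1 fell (11.8%). With HCl, 6 rose on day 3 (5.94%), 8 on day 5 (9.84%) and 3 on day 7 (6.36%), and on day 11 the calls were 3 falls (12.7%). Both courses had their highest count on day 5. Without 2-DG replicate 1 of day 3 the count of that day was 5, and without replicate 2 it was 7. Without 2-DG replicate 1 of day 11 the rises of day 11 were 1.

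For the other treatments the share of all genes called in the same direction stands beside each count. NaHCO3 against the control gave 2 rises (2.72%) and 2 falls (3.67%) on day 5, 1 rise (5.08%) on day 7, and 2 rises (6.7%) and 1 fall (10.2%) on day 11. NaHCO3 added to IWP2 gave 1 rise (3.64%) and 2 falls (2.17%) on day 5, 3 rises (8.4%) and 2 falls (8.29%) on day 7, and 1 rise (9.8%) on day 11. The day 7 count against the control was 3 without control replicate 2 and 2 without either NaHCO3 library, and the day 11 count on IWP2 was 2 without replicate 1 of either group. Without control replicate 2 the rises with NaHCO3 on day 5 were 1. IWP2 against the control gave 2 rises on day 5 (1.93%), 2 rises on day 7 (8.5%) and 1 fall on day 11 (8.68%). On day 11 a count of 1 in 10 was near the share of all genes in both IWP2 comparisons without 2-DG. On day 3 edgeR called 0 of the 10 genes in these 3 comparisons, where 4.08% (NaHCO3), 3.19% (NaHCO3 added to IWP2) and 0.613% (IWP2) of all genes were called in either direction. There 2, 1 and 3 of the 10 genes had an unadjusted p under 0.05, and DESeq2 called 0 in each.

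**Figure D1:**
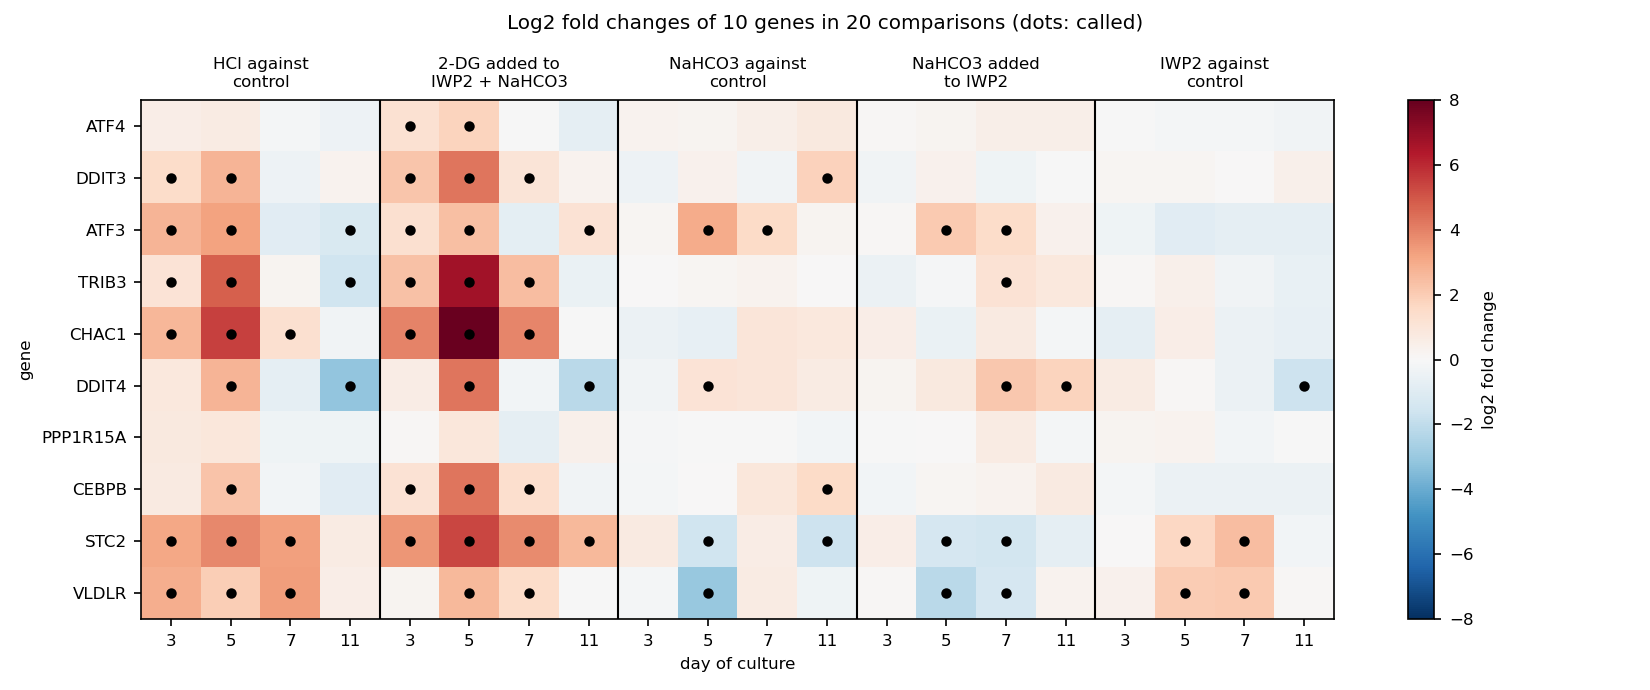
Log2 fold changes of the 10 genes (rows) in 5 treatment comparisons on days 3, 5, 7 and 11 (columns, day of culture); red is higher and blue lower than the reference, and dots mark the 67 called values. Rises cluster in the columns of HCl and 2-DG on days 3 and 5, with CHAC1 at 7.89 under 2-DG on day 5, while STC2 and VLDLR carry most calls under IWP2.

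ATF4 mRNA, which encodes the central transcription factor, was at 136 and 136 FPKM in the control of day 3 and at 138 and 139 with IWP2 and NaHCO3. With 2-DG added it was at 338 and 241 FPKM on day 3 and at 443 and 417 on day 5, where the reference was at 139 and 139. Both groups with 2-DG stood above their references without overlap, and the day 3 libraries were far apart. ATF4 rose by 1.22 on the log2 scale on day 3 (SE 0.14, adjusted p = 1.39e-05) and by 1.80 on day 5 (SE 0.15, adjusted p = 6.46e-09). Without 2-DG replicate 1 of day 3 the day 3 value was 0.85 and lost its call. On day 7 the 2-DG libraries were at 116 and 117 FPKM against 124 and 124, and on day 11 at 86.7 and 82.6 against 136 and 144, a log2 difference of -0.70 that did not reach the fold required. ATF4 under HCl was at 196 and 176 FPKM on day 3 and 212 and 194 on day 5, against 132 and 129 in the control of day 5. Its log2 fold changes of 0.54 and 0.68 had adjusted p = 0.00696 and 6.40e-04 but were under the fold required. ATF4 had the narrowest range of the 10 genes, its highest group mean being 5.08 times its lowest. In the other 18 comparisons ATF4 was not called. It was at 190 and 196 FPKM with NaHCO3 on day 11 against 132 and 128, a log2 difference of 0.77.

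DDIT3 encodes CHOP, a factor of the C/EBP family that ATF4 induces and that promotes cell death under long stress. It was at 0.93 and 0.78 FPKM in undifferentiated cells, the lowest of the 25 groups. In the control it was at 2.76 and 3.20 FPKM on day 3 and 3.41 and 4.37 on day 5, and with HCl at 8.75 and 6.83 and at 28.3 and 21.6. With 2-DG it was at 15.5 and 6.70 FPKM on day 3 and at 90.6 and 95.7 on day 5, against 2.06 and 3.33 on day 3 and 5.36 and 5.57 on day 5 in the references. All 4 treated pairs lay above their reference pair. The rise under HCl was 1.48 on day 3 (SE 0.33) and 2.72 on day 5 (SE 0.31, adjusted p = 5.44e-07), and under 2-DG 2.21 on day 3 (SE 0.34, and 1.37 without 2-DG replicate 1) and 4.26 on day 5 (SE 0.31, adjusted p = 1.33e-09). On day 7 only 2-DG raised it among the 5 comparisons of that day, by 1.06 on the log2 scale, which became 0.87 without replicate 1 of the reference and 0.96 without 2-DG replicate 2, both without a call. On day 11 NaHCO3 was the one comparison with a call for DDIT3: 22.4 and 20.4 FPKM against 6.16 and 7.66 in the control, a rise of 1.83 (SE 0.17, adjusted p = 1.45e-10). NaHCO3 added to IWP2 on the same day gave 7.40 and 9.14 FPKM against 9.93 and 7.95, a log2 difference of -0.05, and this pair overlapped. In the NaHCO3 libraries of day 11 the 7 stromal markers summed to 6843 and 7040 FPKM against 3243 and 3226 in the control, the 12 cardiac markers to 135.5 and 138.7 against 731.7 and 1003, and the mitochondrial share of counts was 2.55% and 2.40% against 3.81% and 3.95%. Their part in the rise of DDIT3, and in that of CEBPB in the same libraries, was not tested.

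ATF3 is a stress-induced factor of the ATF/CREB family. It was at 1.46 and 1.63 FPKM in the control of day 3 and at 9.80 and 9.64 with HCl, a rise of 2.74 (SE 0.14, adjusted p = 5.20e-11). With 2-DG on day 3 it was at 2.36 and 3.29 FPKM against 1.23 and 1.33, a rise of 1.27, and here replicate 2 was the higher library. On day 5 the control was at 3.24 and 4.12 FPKM, HCl at 35.8 and 30.9, and NaHCO3 at 29.0 and 27.1. Acid and base thus both gave levels above the control, by 3.22 (SE 0.13) and by 2.97 (SE 0.13) on the log2 scale. With IWP2 the day 5 level was 1.85 and 1.99 FPKM, with IWP2 and NaHCO3 8.02 and 8.74, and with 2-DG as well 38.4 and 39.9. NaHCO3 added to IWP2 raised ATF3 by 2.09 (SE 0.13), and 2-DG by a further 2.40 (SE 0.12, adjusted p = 1.17e-11). On day 7 NaHCO3 raised it against the control, at 14.8 and 15.7 against 5.80 and 5.78 FPKM, and also on top of IWP2, at 10.3 and 9.08 against 3.09 and 3.51, by 1.52 and 1.50 on the log2 scale. ATF3 was the one gene of the 10 that rose in both NaHCO3 comparisons on days 5 and 7. On day 11 it fell under HCl by 1.23 on the log2 scale, at 2.69 and 3.25 against 7.25 and 7.52 FPKM. The libraries with 2-DG of day 11 were at 14.6 and 7.91 FPKM against 5.00 and 5.35, a rise of 1.16 (SE 0.21, adjusted p = 1.34e-04). Without 2-DG replicate 1 it was 0.60 and lost its call.

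CEBPB encodes C/EBP-beta, a partner of ATF4 on the C/EBP-ATF element. It was at 7.31 and 8.38 FPKM in the control of day 3 and 5.34 and 4.02 on day 5. With HCl it was at 11.4 and 12.5 FPKM on day 3, which was not called (log2 0.69), and at 22.1 and 21.7 on day 5, a rise of 2.26 (SE 0.25, adjusted p = 4.31e-07). With 2-DG it was at 72.5 and 59.4 FPKM on day 5 against 3.89 and 3.90, a rise of 4.25 (SE 0.27, adjusted p = 1.69e-10). On day 3 2-DG gave 14.7 and 8.54 FPKM against 5.69 and 6.03, a rise of 1.15 that became 0.60 without 2-DG replicate 1 and 1.12 without replicate 1 of the reference, both without a call. It rose under 2-DG on day 7, at 8.31 and 9.97 against 3.45 and 4.14 FPKM (1.35). With NaHCO3 on day 7 the libraries were at 4.93 and 10.5 FPKM against 4.06 and 4.85, which was not called (0.91), and the 2 libraries differed by 2.12 times. Without NaHCO3 replicate 1 the value was 1.33, and without control replicate 2 it was 1.05, both with a call. On day 11 NaHCO3 raised it by 1.51 on the log2 scale, at 16.5 and 13.2 against 5.84 and 6.10 FPKM.

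Among the genes that feed back on the response, TRIB3 encodes a pseudokinase induced by ATF4 and CHOP that restrains ATF4. It was at 0.63 and 0.70 FPKM in the control of day 5 and at 20.1 and 16.2 with HCl, a rise of 4.81 (SE 0.23, adjusted p = 1.75e-12). With 2-DG it was at 76.3 and 81.2 FPKM against 0.81 and 0.85, a rise of 6.73 (SE 0.23, adjusted p = 3.76e-14). The treated libraries of day 5 were far above every other library of days 3 and 5. On day 3 the rise was 1.08 with HCl (1.71 and 2.20 against 1.12 and 0.81 FPKM) and 2.35 with 2-DG (4.05 and 2.91 against 0.74 and 0.78). The rise with HCl on day 3 was 0.89, without a call, when HCl replicate 2 or control replicate 2 was left out. On day 7 it was still 2.45 with 2-DG, at 7.51 and 8.99 against 1.52 and 1.68 FPKM, and 1.15 for NaHCO3 added to IWP2, which lost its call at 0.99 without IWP2 replicate 2. On day 11 TRIB3 fell under HCl by 1.58 on the log2 scale (SE 0.26), at 0.69 and 1.02 against 2.65 and 2.76 FPKM.

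PPP1R15A encodes GADD34, the regulatory subunit that directs a phosphatase to eIF2alpha and so ends the response. It was at 49.6 and 44.3 FPKM with HCl on day 5 against 27.8 and 24.5 in the control, and at 54.8 and 59.4 with 2-DG against 33.0 and 34.6. These pairs did not overlap, but the log2 differences of 0.88 (SE 0.11) and 0.93 (SE 0.11) were under the fold required. PPP1R15A was called in 0 of 20 treatment comparisons by edgeR, with no call by DESeq2, and the largest of its log2 differences was 0.93. Its edgeR p was under 0.05 in 11 of them before adjustment and in 8 after it, so those 8 lacked only the fold required. Without HCl replicate 2 of day 5 the HCl value was 1.01 and was called. In the control course PPP1R15A was called once, between undifferentiated cells and day 7. It was at 4.83 and 4.83 FPKM in undifferentiated cells and at 32.0 and 33.0 in the control of day 7, a rise of 2.58 (SE 0.10, adjusted p = 3.91e-20). With IWP2 and NaHCO3 on day 7 it was at 43.0 and 44.1 FPKM, above the 25.9 and 25.3 of the culture with 2-DG, a log2 difference of -0.69.

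Among the effectors, CHAC1 encodes an enzyme that cleaves glutathione. Its level in the control of day 5 was 0.76 and 0.33 FPKM, and it was 28.1 and 19.6 with HCl. With 2-DG it was 122 and 119 FPKM against 0.54 and 0.60. In both comparisons the treated libraries lay far above the reference. The rises were 5.45 (SE 0.30, adjusted p = 1.97e-11) with HCl and 7.89 (SE 0.31, adjusted p = 1.99e-13) with 2-DG. On day 3 HCl gave 8.65 and 8.76 FPKM against 1.35 and 1.57, a rise of 2.67, and 2-DG gave 21.1 and 13.2 against 1.28 and 1.19, a rise of 3.95 (3.47 without 2-DG replicate 1). On day 7 the HCl libraries were at 0.81 and 0.80 FPKM against 0.44 and 0.26, a rise of 1.26 that became 0.91 and lost its call without control replicate 2, while 2-DG was at 5.73 and 5.96 against 0.34 and 0.47, a rise of 3.93. On day 11 its levels were 0.27 to 1.11 FPKM in all groups, and none of the 5 comparisons was called by edgeR or DESeq2, with an unadjusted p under 0.05 in 1. Without control replicate 2 the NaHCO3 value of that day was 1.31 and was called. Undifferentiated cells had 6.92 and 4.90 FPKM, and the 2-DG libraries of day 7 lay between these values.

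DDIT4 encodes REDD1, which inhibits mTORC1. It was at 9.36 and 7.51 FPKM in the control of day 5, 63.5 and 47.0 with HCl, and 276 and 266 with 2-DG against 15.4 and 15.6. It rose by 2.75 (SE 0.20) with HCl and by 4.30 (SE 0.21, adjusted p = 3.79e-12) with 2-DG. NaHCO3 raised it on day 5 against the control by 1.10, which lost its call at 0.96 without control replicate 2, and added to IWP2 it raised it on days 7 and 11 by 2.14 and 1.78 on the log2 scale. On day 11 the level fell under HCl, at 1.78 and 2.11 against 18.7 and 18.3 FPKM, a change of -3.17 (SE 0.14, adjusted p = 3.81e-18). It fell also under IWP2 (-1.68, 6.06 and 5.30 FPKM) and under 2-DG (-2.17, 3.89 and 4.28 against 18.1 and 19.1). In these 3 treated groups of day 11 the 12 cardiac markers summed to 7345 and 7348 FPKM (HCl), 4661 and 4778 (IWP2) and 7342 and 8111 (2-DG), against 732 and 1003 in the control and 482 and 502 with IWP2 and NaHCO3. The 12 liver and foregut markers summed to 282 and 463, 179 and 196, and 196 and 207 FPKM, against 5254 and 6237 and 4938 and 5307. The part of cell makeup in these falls, and in those of ATF3 and TRIB3 with HCl, was not tested. Mitochondrially encoded genes held 9.75% to 9.87% of the counts of HCl libraries of day 11 and 8.97% to 9.41% with 2-DG, against 3.81% to 3.95% in the control and 4.06% to 4.08% with IWP2 and NaHCO3.

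STC2 encodes stanniocalcin 2, a secreted glycoprotein. It was called in 13 of 20 treatment comparisons, the most of the 10 genes, with 9 rises and 4 falls. On day 3 it was at 4.55 and 3.61 FPKM with HCl against 0.49 and 0.50 (3.12), and at 6.82 and 8.68 with 2-DG against 0.76 and 0.68 (3.55, SE 0.17). On day 5 it was at 0.87 and 0.99 FPKM in the control, 13.3 and 12.2 with HCl, 0.29 and 0.30 with NaHCO3, and 2.75 and 3.14 with IWP2. The order was NaHCO3, control, IWP2 and HCl, without overlap between neighbours. The changes against the control were -1.62, 1.67 and 3.82 on the log2 scale. IWP2 with NaHCO3 had 1.20 and 1.21 FPKM and 43.9 and 44.5 with 2-DG, a rise of 5.36 (SE 0.17, adjusted p = 1.93e-14). On day 7 HCl gave 4.87 and 5.07 FPKM against 0.42 and 0.64 (3.26), and 2-DG 12.8 and 15.0 against 1.03 and 1.09 (3.79). IWP2 alone gave 2.70 and 2.96 FPKM on day 7, a rise of 2.50, and NaHCO3 on top of it a fall of 1.47 on the log2 scale. On day 11 2-DG was the one treatment with a rise, at 6.88 and 7.59 against 1.10 and 1.33 FPKM (2.60), and NaHCO3 had a fall of 1.63 on the log2 scale (0.72 and 0.69 against 2.49 and 2.50).

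VLDLR encodes the very-low-density lipoprotein receptor. It was the gene whose highest level was not with 2-DG on day 5: that was HCl on day 7, at 45.0 and 43.9 FPKM against 4.44 and 4.82 in the control, a rise of 3.31 (SE 0.08, adjusted p = 3.17e-24). On day 3 HCl gave 9.18 and 9.80 FPKM against 1.07 and 1.66, a rise of 2.89, while 2-DG gave 1.74 and 2.07 against 1.77 and 1.79, which overlapped. On day 5 HCl gave 29.9 and 28.8 FPKM, IWP2 29.1 and 30.9 and the control 7.75 and 7.32, so HCl and IWP2 overlapped and both lay above the control. NaHCO3 gave 0.93 and 0.90 FPKM, a fall of 3.01 on the log2 scale (SE 0.15), and added to IWP2 a fall of 2.16 to 7.02 and 6.69. With 2-DG added the level was 36.7 and 37.6 FPKM, a rise of 2.61 (SE 0.14). On day 7 IWP2 raised it by 2.10 and NaHCO3 on top of IWP2 lowered it by 1.33, and 2-DG raised it again by 1.47. On day 11 its levels were 10.2 to 20.6 FPKM in the 12 libraries, and none of the 5 comparisons was called by edgeR or DESeq2, with an unadjusted p under 0.05 in 3.

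**Figure D2:**
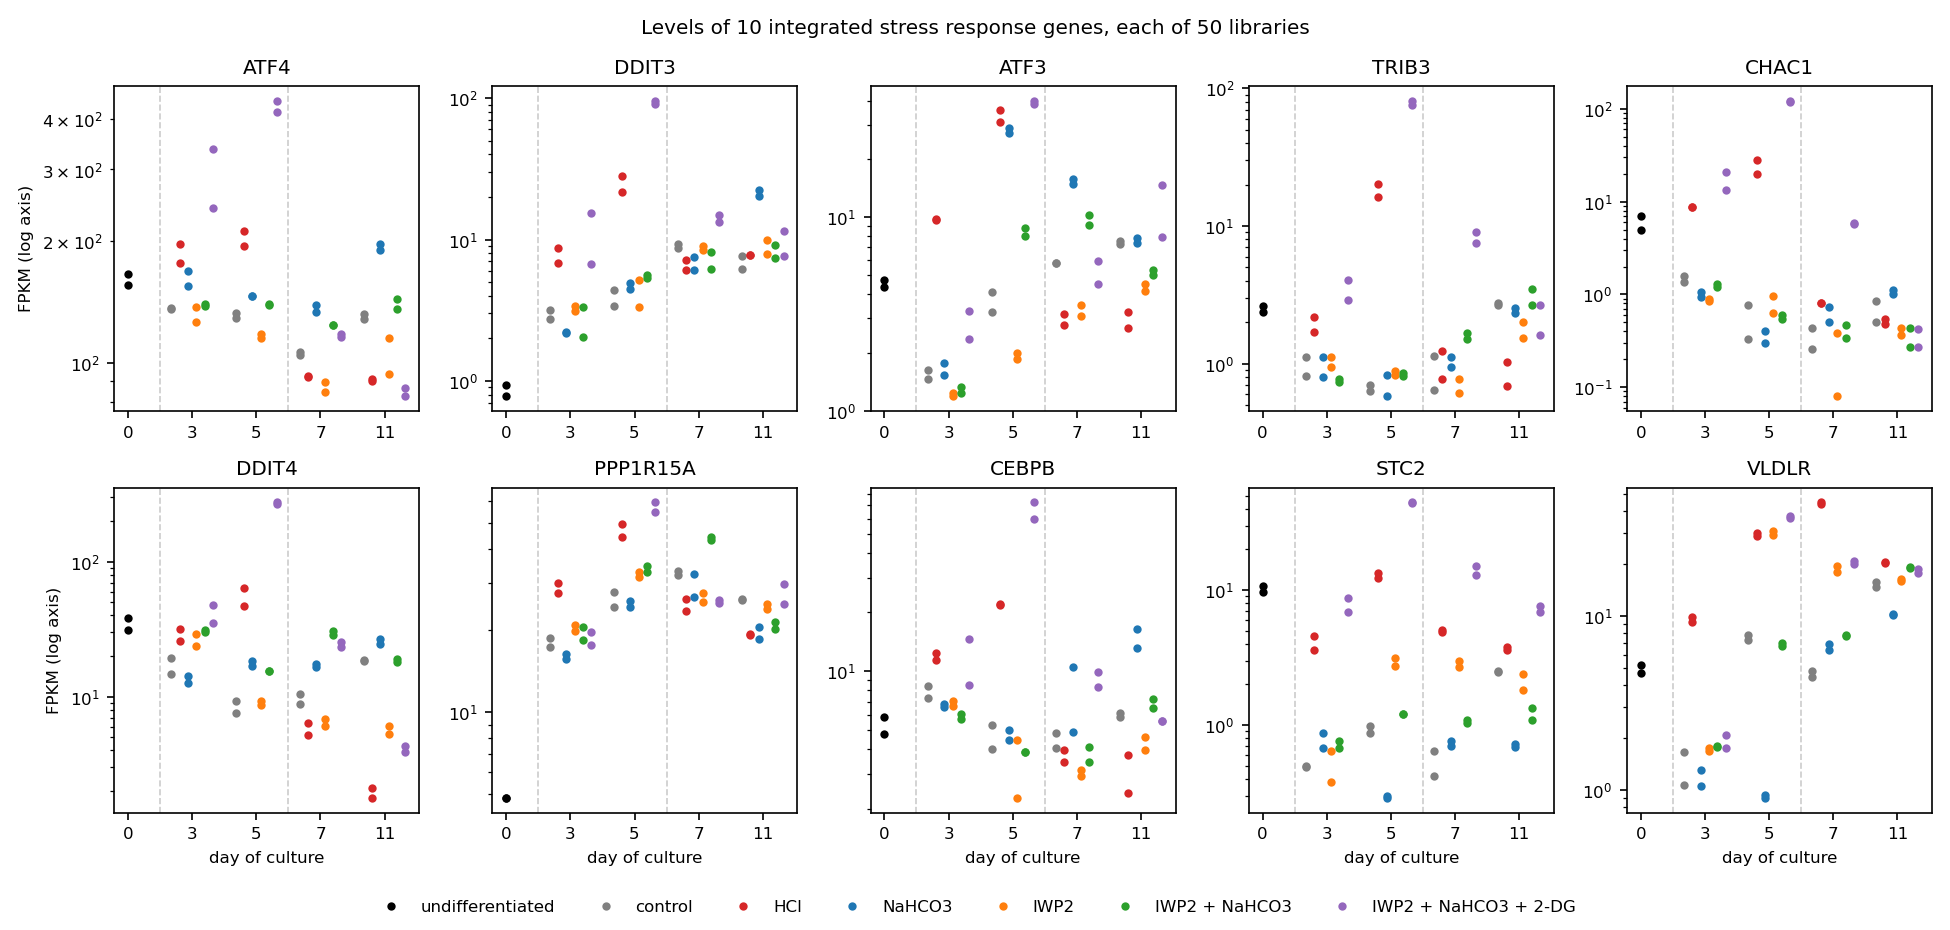
Deposited FPKM of the 10 genes in all 50 libraries (log axis) by day of culture, coloured by treatment; dashed lines separate the tables of days 3 and 5 from day 0 and from days 7 and 11, whose levels were not tested against each other. The pair with 2-DG of day 5 is the highest for 9 of 10 genes, and for VLDLR it is HCl on day 7.

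Over the 25 groups, 2-DG on day 5 had the highest mean of 9 genes, and for each it lay clear of every other group. The ratio of highest to lowest group mean was 524 for CHAC1, 150 for STC2, 139 for DDIT4, 119 for TRIB3, 109 for DDIT3, 48.6 for VLDLR, 32.3 for ATF3, 21.7 for CEBPB, 11.8 for PPP1R15A and 5.08 for ATF4. The lowest group of CHAC1, IWP2 on day 7, was at 0.38 and 0.08 FPKM (14 and 3 counts), so its ratio is imprecise. All ratios but those of STC2, TRIB3 and ATF3 set a level of days 3 and 5 against one of days 7, 11 or 0, which was not tested. In between, most neighbours in the order of group means could not be told apart: the libraries of adjacent groups overlapped for 18 of 24 neighbouring pairs in DDIT3, TRIB3, PPP1R15A and CEBPB, 17 in DDIT4, 15 in CHAC1, 13 in ATF4, 12 in ATF3, 11 in STC2 and 9 in VLDLR.

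The test of the difference in effect between days used an interaction term, and an effect is said to be larger or lower where this difference was called. The effect of HCl was larger on day 5 than on day 3 for 5 genes (8.35% of all genes were higher in this sense), TRIB3, CHAC1, DDIT4, CEBPB and DDIT3, and no gene was called in the other direction. VLDLR, at -0.90, was called there without control replicate 2 of day 3 (-1.21, adjusted p = 2.24e-05 by edgeR). For DDIT3 this difference, 1.25 (adjusted p = 0.0493), lost its call when any 1 of 7 of the 8 libraries was left out. From day 7 to day 11 it was lower for 5 (9.96%), TRIB3, CHAC1, DDIT4, STC2 and VLDLR, of which CHAC1, at -1.55 (adjusted p = 0.0282), lost its call without HCl replicate 1 or 2 of day 7, HCl replicate 2 of day 11, or control replicate 2 of day 7 or of day 11. The effect of 2-DG was larger on day 5 than on day 3 for 8 genes (5.65%). For ATF4 and PPP1R15A the differences, 0.58 and 0.84, had the same direction but were under the fold required. Without 2-DG replicate 1 of day 3 the value for ATF3 was 0.96 and lost its call, and for DDIT3 the call was lost, at 1.68 (adjusted p = 0.0528), without replicate 2 of the reference of day 3. From day 7 to day 11 it was lower for 6 genes (5.08%) and higher for ATF3 and PPP1R15A (4.55%), where the value for PPP1R15A, 1.11, was 0.94 without 2-DG replicate 1 of day 11 and lost its call.

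Summed levels of cell type markers differed between the compared cultures. On day 3 the 10 pluripotency markers summed to 818.9 and 943.2 FPKM with HCl against 565.5 and 636.3 in the control, and the 6 primitive streak markers to 71.7 and 72.9 with 2-DG against 136.2 and 162.8. On day 5 the 10 pluripotency markers summed to 502.8 and 508.2 FPKM with HCl against 368.8 and 393.9 in the control, the streak markers to 73.0 and 73.4 against 9.98 and 10.1, the 12 liver and foregut markers to 10.8 and 10.2 against 320.6 and 381.6, and the 7 stromal markers to 93.9 and 97.7 against 872.8 and 998.8. With 2-DG on day 5 the pluripotency sum was 187 and 200.4 FPKM against 285.9 and 308.1, that of the liver and foregut markers 29.0 and 37.8 against 292.2 and 292.7, and that of the stromal markers 510.3 and 571 against 1699 and 1798. On day 5, when both treatments had most calls, the pluripotency sum was higher with HCl and lower with 2-DG. The liver and foregut and the stromal sums were lower with both. Single markers did not all follow the pluripotency sum with 2-DG. SOX2 was at 0.85 and 1.05 FPKM against 0.44 and 0.29, and NANOG at 0.04 and 0.06 against 0.02 and 0. POU5F1, at 5.3 and 2.57 against 4.09 and 2.8, overlapped. Levels of the other pluripotency markers are not given singly here. The sums differed with NaHCO3 too. On day 5 the stromal sum with NaHCO3 was 2666 and 2586 FPKM and the cardiac sum 162 and 161 against 597.3 and 588.6. On day 7 the stromal sum with NaHCO3 was 6259 and 5706 FPKM against 2536 and 2419, and the mitochondrial share of counts 2.57% and 2.82% against 3.83% and 3.93%. On day 7 the cardiac sum was 1114 and 1566 FPKM with HCl against 488.6 and 553, and 4723 and 4765 with 2-DG against 702.7 and 766.1. The part of cell makeup in the changes of these days was not tested.

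In the control cultures themselves, 3 of the 10 genes were called between days 3 and 5 (18.1% of all genes were), VLDLR and ATF3 higher and CHAC1 lower. Without control replicate 2 of day 5 the CHAC1 change of -1.32 was -0.88 and lost its call, and without control replicate 1 of day 5 the count was 5. Between undifferentiated cells and the control of day 7, 6 were called (34.9%): DDIT3 and PPP1R15A rose and CHAC1, STC2, DDIT4 and TRIB3 fell. STC2 was at 10.7 and 9.62 FPKM in undifferentiated cells and at 0.42 and 0.64 on day 7, a change of -4.41 (SE 0.15, adjusted p = 3.95e-22). From day 7 to day 11, TRIB3, DDIT4, STC2 and VLDLR rose (10.4% of all genes were called), and the rise of DDIT4, 1.00, lost its call at 0.88 without control replicate 1 of day 7.

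Other genes of the pathway were read from lists chosen for the function of their members, with earlier results of these data known. Their counts therefore describe these data and are not independent support. On day 5, 9.84% of all genes tested rose and 10.2% fell with HCl, and 7.04% rose and 9.42% fell with 2-DG, and the median log2 fold change of all genes was -0.02 and -0.01. Of 15 tested genes for eIF2 kinases, subunits of eIF2 and eIF2B and related factors, 2 rose with HCl and 2 with 2-DG and 0 fell, with medians of 0.13 and 0.20, and 2 of 15 is near the share of all genes. EIF2AK3, which encodes PERK, rose with both, at 10.6 ± 0.0354 FPKM against 4.79 ± 0.184 (SD, n = 2) and at 12.2 ± 0.587 against 4.28 ± 0.127. Of 24 other ATF4 targets, 15 rose and 0 fell with HCl, and 19 rose and 1 fell with 2-DG, with medians of 1.19 and 1.60.

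Genes of amino acid supply rose on day 5 as well, and none of the lists of this paragraph had a fall there. Of 10 genes for amino acid synthesis, 7 rose with HCl and 7 with 2-DG, with medians of 1.65 and 2.94, and of 10 amino acid transporters 7 and 9, with medians of 1.46 and 3.00. ASNS, asparagine synthetase, was at 41.9 ± 0.799 FPKM with HCl against 4.16 ± 0.410, and at 115 ± 0.332 with 2-DG against 2.94 ± 0.184 (SD, n = 2). SLC7A11, the cystine transporter, was at 10.7 ± 2.54 FPKM with 2-DG against 0.15 ± 0.0141. Of 12 tRNA synthetases, 7 rose with HCl and 9 with 2-DG, with medians of 1.02 and 1.73, among them WARS, at 40.9 ± 0.339 FPKM against 8.66 ± 0.0778 and at 98.6 ± 6.43 against 10.2 ± 0.502.

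Most genes of the ER list rose with 2-DG. Of 18 genes for ER chaperones and targets of ATF6 and XBP1, 17 rose and 0 fell with 2-DG on day 5, with a median of 2.40, and 1 rose and 0 fell with HCl, with a median of 0.40. On day 3, 12 rose and 0 fell with 2-DG (median 1.17) and 2 rose and 0 fell with HCl (median 0.16). HERPUD1, a component of ER-associated degradation, was at 83.1 ± 7.46 FPKM with 2-DG against 6.13 ± 0.0849 and at 13.8 ± 1.12 with HCl against 4.83 ± 0.339 (SD, n = 2), and SDF2L1, an ER chaperone cofactor, was at 134 ± 4.97 against 14.9 ± 0.417 with 2-DG. The difference between HCl and 2-DG in these counts was not tested, and the cultures differ in IWP2 and NaHCO3 as well.

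Of 15 p53 targets, 9 rose and 0 fell with HCl on day 5 (median 1.33), among them CDKN1A, the p21 cell cycle inhibitor, at 43.2 ± 0.870 FPKM against 0.615 ± 0.00707 (SD, n = 2), and 5 rose and 2 fell with 2-DG (median 0.23). Of 8 tested immediate early genes, 6 rose and 0 fell with HCl (median 2.07), and 4 rose and 0 fell with 2-DG (median 0.75). Of 13 tested hypoxia targets, 2 rose and 3 fell with HCl (median -0.32), and 2 rose and 0 fell with 2-DG (median 0.20).

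**Figure D3:**
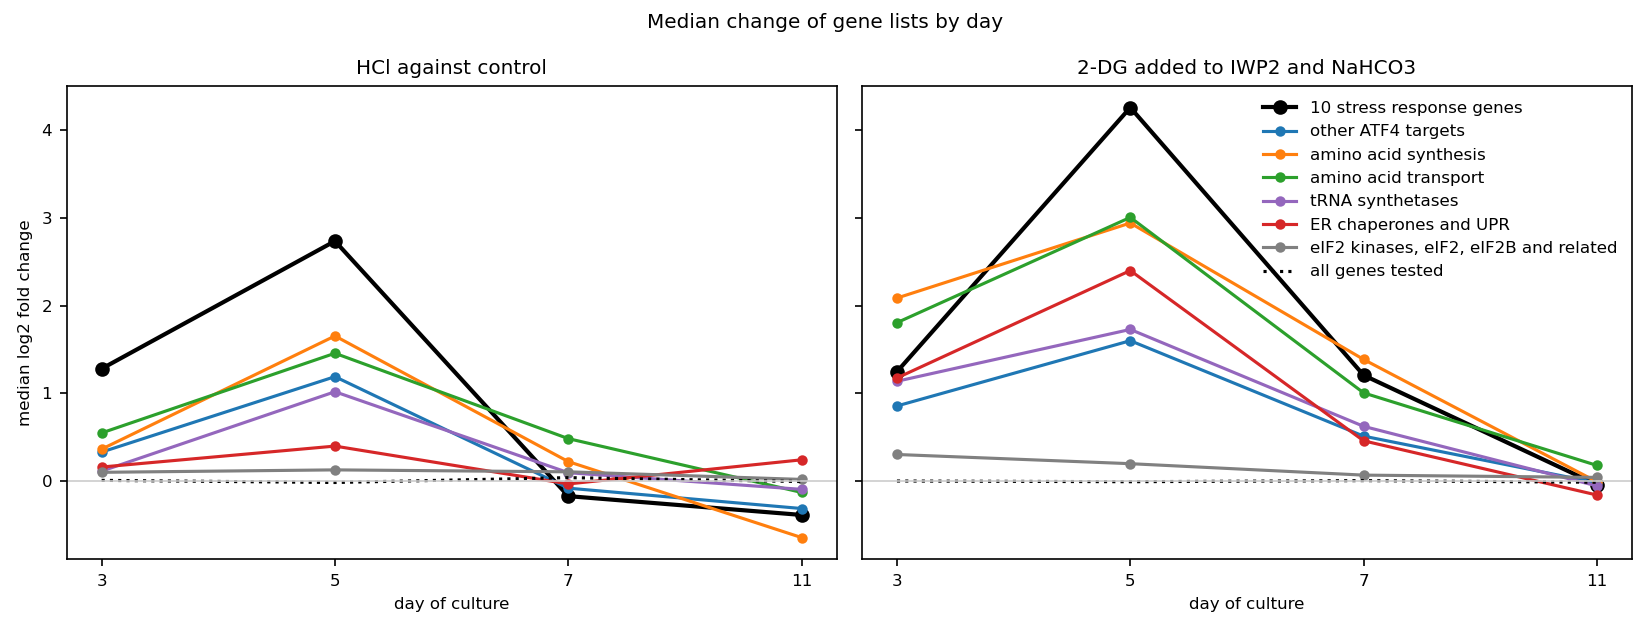
Median log2 fold change of the 10 genes, of 6 other lists and of all genes tested, by day of culture, for HCl against control (left) and 2-DG added to IWP2 and NaHCO3 (right). On day 5 the median of the 10 genes was 2.73 with HCl and 4.26 with 2-DG, and that of the ER list was 0.40 and 2.40.

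On day 11 the lists of ATF4 targets and amino acid synthesis were near the shares of all genes, of which 12.7% fell and 8.37% rose with HCl, and 11.8% fell and 9.32% rose with 2-DG. Of 23 other ATF4 targets, 4 fell and 0 rose with HCl (median -0.31), and 4 fell and 0 rose with 2-DG (median -0.02). Of 10 amino acid synthesis genes, 2 fell and 0 rose with HCl (median -0.65), among them PHGDH, the first enzyme of serine synthesis, at 11.9 ± 0.226 FPKM against 37.5 ± 2.67 (SD, n = 2), and 1 fell and 1 rose with 2-DG (median -0.01). Between undifferentiated cells and the control of day 7, where 15.6% of all genes fell and 19.3% rose, all 12 tested tRNA synthetases and 7 of 10 amino acid synthesis genes fell and 0 of either rose, with medians of -1.49 and -2.10.

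The likeness between the 10 genes is a description over group means of log2(FPKM + 1), with points that share libraries and controls. Over the 12 groups of days 3 and 5, Pearson's r between pairs of the 10 genes had a median of 0.82, and 45 of 45 pairs were above 0, from 0.36 (ATF4 with VLDLR) to 0.97 (DDIT3 with TRIB3). Each of the 10 genes had its highest mean of these 12 groups with 2-DG on day 5, and r without that group was not computed. Over the 13 groups of days 7, 11 and 0 the median was 0.14, with 25 pairs above 0 and 20 below, from -0.64 (CHAC1 with PPP1R15A) to 0.84 (ATF4 with DDIT4). The genes whose pattern was most like a member in both tables, among 9174 candidates and ranked by the lower of the 2 values of r, were ASNS, GARS and SARS for CHAC1 (0.94, 0.93 and 0.93), INHBE, ATF5 and XBP1 for TRIB3 (0.82, 0.80 and 0.80), and BCAR1, TESK1 and AXL for PPP1R15A (0.92, 0.91 and 0.88). For DDIT4 they were PCK2, CLIC1 and SLC3A2 (0.88, 0.88 and 0.84), for STC2 SLC7A1, WDR1 and RSU1 (0.90, 0.86 and 0.84), and for VLDLR PRSS23, CTGF and ENTPD4 (0.87, 0.85 and 0.85). For ATF4 they were CLIC1, PYCR1 and MT1F (0.84, 0.81 and 0.81), and for DDIT3 NUCB2, SIAH2 and CLTB (0.89, 0.88 and 0.85). ATF3 had CACNG4, KLF6 and PTRF (0.78, 0.78 and 0.76), and CEBPB had TMUB1, SELM and TRAM1 (0.81, 0.81 and 0.81).

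**Figure D4:**
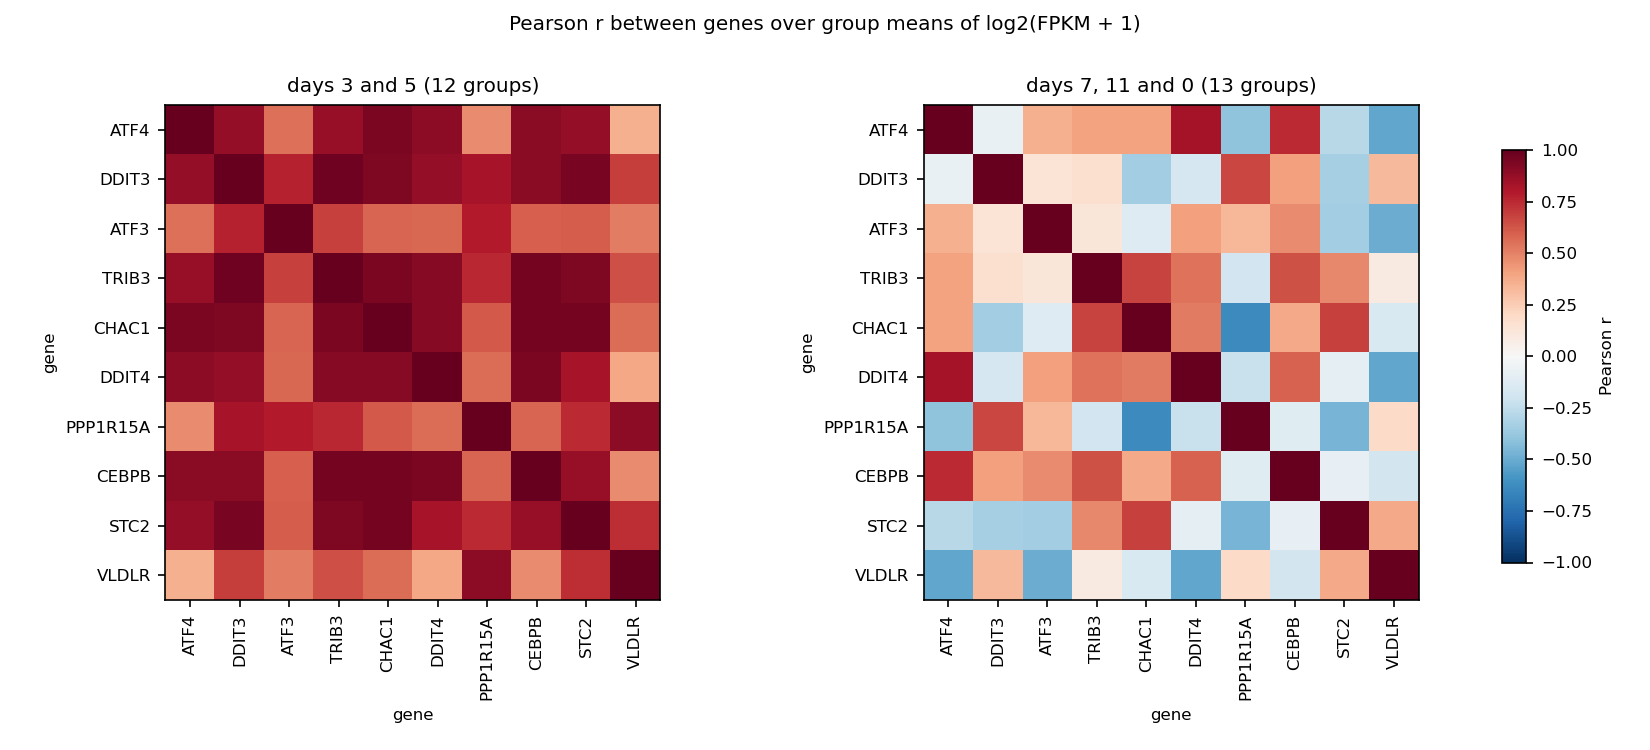
Pearson r between pairs of the 10 genes over group means of log2(FPKM + 1), for the 12 groups of days 3 and 5 (left) and the 13 groups of days 7, 11 and 0 (right), from -1 (blue) to 1 (red). All 45 pairs are above 0 on the left, and 20 of 45 are below 0 on the right.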

How the data were processed

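RNA of H1 cells was isolated with RNAiso Plus (Takara), and a VAHTS Universal V8 kit turned 1 µg of it into each library, per the labels' protocols. The authors deposited whole-number counts per gene and FPKM values, in one table for days 3 and 5 and another for days 7, 11 and 0. Per the submitters' processing notes, cutadapt 1.9.1, HISAT2 2.0.1, HTSeq 0.6.1 and GRCh37 were used. Strand handling is not given in the sources used here. The deposited FPKM equal values recomputed from the counts and deposited gene lengths (median ratio 1).

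Each table was fitted whole in R 4.3.3 with edgeR 4.0.16 (TMM scaling, robust quasi-likelihood test) on genes that reached 1 FPKM in 2 or more libraries, which left 17286 genes with 99.57% of the counts and 18451 genes with 99.63%, at a common biological coefficient of variation of 0.1186 and 0.06689. All groups of a table share 1 estimate of the spread. P-values were adjusted over all genes of a table. DESeq2 1.42.0 and limma 3.58.1 on log2(FPKM + 1) and log2(FPKM + 0.1) were alternatives, with no filter, only the days compared, a replicate block and each library left out. On simulated counts made from 2-DG against its reference on day 5 (17286 genes), 46%, 96%, 98% and 100% of genes changed 2-, 3-, 4- and 8-fold were called, and on day 7 (18451 genes) 34%, 98%, 100% and 96%.

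The 10 genes and the other lists were chosen with earlier results of these data known. All 10 are named. From the other lists, counts in both directions and the median are given for the comparisons named, and at most the 2 called genes with the largest change in a comparison are named. Some genes are in more than 1 list. For likeness, the 3 genes outside the 10 with the highest value of the lower r were taken, among genes with a highest group mean of at least 5 FPKM in each table. No GRCh37 sequence was used, and promoter windows come from RefSeq on GRCh38.p14.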

Additional observations from a re-analysis of the deposited data

Results flagged for a closer look

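The effects below differed between 2 days of culture by the interaction term of edgeR's quasi-likelihood test, with Benjamini-Hochberg adjusted p-values over all genes of the table. Each value is the log2 effect on the later day minus that on the earlier day. Because 4 groups of 2 libraries enter each value, the number of libraries limits the precision.

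The HCl effect was larger on day 5 than on day 3 by 3.73 for TRIB3 (adjusted p = 6.35e-08), 2.78 for CHAC1, 1.89 for DDIT4, 1.57 for CEBPB and 1.25 for DDIT3 (adjusted p = 0.0493). The 2-DG effect was larger on day 5 by 4.39 for TRIB3, 3.94 for CHAC1, 3.70 for DDIT4, 3.11 for CEBPB, 2.37 for VLDLR, 2.05 for DDIT3, 1.81 for STC2 and 1.12 for ATF3 (adjusted p = 3.17e-08 for TRIB3 and 0.000264 for ATF3). TRIB3 had the largest difference in both courses and CHAC1 the next. The calls of DDIT3 in both courses and of ATF3 with 2-DG were lost in fits without 1 library, as given above.

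From day 7 to day 11 the HCl effect differed by -2.80 for VLDLR, -2.61 for STC2, -2.48 for DDIT4, -1.79 for TRIB3 and -1.55 for CHAC1 (adjusted p = 6.03e-19 for VLDLR and 0.0282 for CHAC1). The 2-DG effect differed by -3.98 for CHAC1, -2.98 for TRIB3, -1.95 for DDIT4, -1.62 for CEBPB, -1.51 for VLDLR and -1.19 for STC2, and by 1.96 for ATF3 and 1.11 for PPP1R15A (adjusted p = 6.77e-05 and 3.68e-08 for the last pair). The calls of CHAC1 with HCl and of PPP1R15A with 2-DG were lost in fits without 1 library, as given above. In both courses the effect on TRIB3, CHAC1, DDIT4, STC2 and VLDLR was lower on day 11 than on day 7, while ATF3 and PPP1R15A moved the other way with 2-DG. The HCl differences include the change of the control from day 7 to day 11. There TRIB3 rose by 1.64, STC2 by 2.29, VLDLR by 1.77 and DDIT4 by 1.00, and CHAC1, at 1.00, was not called. With HCl the mean of TRIB3 was 1.0 FPKM on day 7 and 0.855 on day 11, and that of STC2 4.97 and 3.715.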

How the results depend on the processing

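Over 3050 values of the 10 genes under alternatives, 2920 kept their direction and their side of the threshold, 53 lost the call, 23 gained one and 54 changed sign. None of the 54 was called before or after, and the largest of them was 0.64 in size before the change. ATF4 with 2-DG on day 7 was 8e-04 with only the libraries of the days compared and -0.0257 to 0.0081 with each library left out, DDIT3 with NaHCO3 added to IWP2 on day 11 was -0.2085 to 0.1162, and CHAC1 with IWP2 on day 7, at -0.48 and not called, was -1.95 to 0.22. The cause was not tested. Of the 106 values called, 83 kept the call under every alternative run. DESeq2 kept all 106 and added none. Leaving out 1 library ended 29 of 608 calls and added 22. With limma at a pseudocount of 1, which shrinks the change of low genes, the count of the 10 genes called was 3 instead of 5 for NaHCO3 added to IWP2 on day 7, 2 instead of 4 for NaHCO3 on day 5, 2 instead of 4 for the control from day 7 to day 11 and 1 instead of 3 from day 3 to day 5. Leaving out each library gave 1 to 2 for NaHCO3 added to IWP2 on day 11, 1 to 3 for NaHCO3 on day 7 and 2 to 5 for the control from day 3 to day 5. The other counts of calls in either direction stayed within 1.5 times. Of counts in 1 direction, limma at a pseudocount of 1 also left 1 of 2 rises with 2-DG on day 11, and 1 of 2 falls for NaHCO3 added to IWP2 on day 5. Same-numbered libraries showed little common deviation (r from -0.1102 to 0.2927 on days 3 and 5, 2 of 66 pairs of groups above 0.1, and from -0.0595 to 0.0647 in the other table). Such values cannot show whether libraries of the same number share a culture or batch with a small effect. A fit with the replicate block left all 27 counts as they were, among them 9 for 2-DG and 8 for HCl on day 5. Depth limits CHAC1 most, with libraries under 1 FPKM in most groups of days 7 and 11.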
